A study of Mus musculus with 8 samples.

Results

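Collagens are secreted or membrane-bound proteins whose chains wind into triple helices, and they form much of the matrix between and beneath cells. The fibrillar types build the fibres of connective tissue, type IV forms the network of basement membranes, the fibril-associated types decorate fibrils, and the transmembrane types stay on the cell surface. In the early embryo, basement membranes underlie the epithelia and vessels, while fibrillar collagens rise as mesoderm forms mesenchyme, heart, notochord and somites.

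The collagen genes were taken as all features whose symbol is Col, a number, the letter a and a number, which gave 44 of the 55422 features in the count tables. By the type of chain they divided into 11 fibrillar collagens, 8 of basement membranes (type IV, XV and XVIII chains), 9 fibril-associated collagens, 6 of beaded filaments (type VI), 4 transmembrane collagens and 6 short-chain network, anchoring and remaining collagens. Single-cell RNA-seq (10x Genomics 3′ v3) had been run on chimaeric mouse embryos. They were made from 1 embryonic stem cell line that lacked Tet1, Tet2 and Tet3, the enzymes that oxidise methylated cytosine (Tet-TKO, background C57BL/6J-129Sv, marked with a tdTomato transgene), and from host embryos of the C57BL/6J background labelled wildtype (WT host). Embryos were pooled, dissociated and sorted into tdTomato-positive Tet-TKO cells and tdTomato-negative WT host cells, which gave 6 libraries at E8.5 (4 Tet-TKO and 2 WT host) and 1 library of each at E7.5. Genotype and strain background cannot be told apart, since every Tet-TKO library was C57BL/6J-129Sv and every WT host library C57BL/6J. The host cells had also developed beside Tet-TKO cells in the same chimaeras.

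The 6 E8.5 libraries held 65082949 to 136773098 UMIs (unique transcript tags) in 1012 to 9552 kept cells, and the E7.5 libraries held 105285952 (Tet-TKO) and 103542129 (WT host). Collagens made up 32202 to 48276 of the UMIs in each E8.5 library, and levels are given as CPM, in which the UMIs of each library or cell class add up to 1000000 over all genes. A 3′ tag is counted once per transcript, so CPM was not divided by gene length. The tdTomato transgene was at 71.5 to 144 CPM in the Tet-TKO libraries and at 0.444 to 0.938 in the WT host libraries. The Tet-TKO libraries at E8.5 formed 2 pairs: by a chi-square statistic per degree of freedom over genes, libraries 1 and 2 differed by 15.5 and libraries 3 and 4 by 18.7, against 179 to 197 across the pairs and 141 for WT host. Libraries 3 and 4 had fewer cells (2304 and 1012) and more UMIs per cell (medians of 40387 and 68704) than the other 4 libraries (12176 to 18763). No label says that the libraries came from separate pools of embryos, so the p-values measure the spread between these libraries. For several results the fit with each pair summed to 1 sample is given too, or the fits with either pair left out. The latter were chosen after the data had been seen. A fit with 1 pair left out keeps 2 near-identical Tet-TKO libraries as replicates. Its p-values measure the small spread within that pair, not that between pools of embryos.

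Clustering without any collagen or matrix gene gave 72 E8.5 clusters of 37211 cells, of which 78.3% of cells fell into 23 classes named "-like" after fixed marker genes; 20 clusters stayed unnamed. A gene was called changed at an adjusted p under 0.01 in edgeR's quasi-likelihood test with at least a 2-fold difference. All fold changes are Tet-TKO against WT host, on the log2 scale with their standard error (SE). Where the libraries of the genotypes are said not to overlap, this describes the values. The share of all genes that separate in this way is not given, so it is not a result about collagens.

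Promoter sequence is shown for 4 members on which the results turn: Col9a1 (lower in Tet-TKO cells of many classes), Col7a1 (the only call in whole libraries), Col13a1 (with opposite fold changes in different classes) and Col3a1 (at 3.84 to 60.4 CPM across the E8.5 libraries). Each run is the 250 bases before the RefSeq transcript start in GRCm38.p6, read 5′ to 3′ on the strand of the gene, with CG dinucleotides, the sites where vertebrate DNA is methylated, in capitals. They lie at chr1:24177360-24177609 (plus strand) for Col9a1, chr9:108953336-108953585 (plus) for Col7a1, chr10:61979109-61979358 (minus) for Col13a1 and chr1:45311288-45311537 (plus) for Col3a1.
Col9a1: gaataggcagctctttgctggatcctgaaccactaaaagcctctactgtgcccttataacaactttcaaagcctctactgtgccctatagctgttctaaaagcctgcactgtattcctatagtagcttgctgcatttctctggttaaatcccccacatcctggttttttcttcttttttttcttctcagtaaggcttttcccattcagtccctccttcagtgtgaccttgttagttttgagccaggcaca
Col7a1: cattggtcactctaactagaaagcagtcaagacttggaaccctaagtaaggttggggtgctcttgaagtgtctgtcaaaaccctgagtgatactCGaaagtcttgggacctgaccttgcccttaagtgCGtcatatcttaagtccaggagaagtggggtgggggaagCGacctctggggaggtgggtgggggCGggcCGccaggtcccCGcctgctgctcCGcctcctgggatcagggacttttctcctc
Col13a1: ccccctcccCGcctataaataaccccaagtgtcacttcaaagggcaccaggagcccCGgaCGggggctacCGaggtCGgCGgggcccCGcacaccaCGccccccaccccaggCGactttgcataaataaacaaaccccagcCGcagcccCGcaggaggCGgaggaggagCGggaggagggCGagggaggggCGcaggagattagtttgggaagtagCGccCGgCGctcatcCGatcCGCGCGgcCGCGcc
Col3a1: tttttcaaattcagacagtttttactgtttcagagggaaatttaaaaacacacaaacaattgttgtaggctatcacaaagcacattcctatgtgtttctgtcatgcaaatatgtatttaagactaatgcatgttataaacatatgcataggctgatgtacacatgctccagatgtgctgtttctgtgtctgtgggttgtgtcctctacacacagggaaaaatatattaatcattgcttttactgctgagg
The Col9a1 and Col3a1 runs held no CG, the Col7a1 run held 7 and the Col13a1 run held 24. Over the 300-base windows that add the 50 bases after the start, Col9a1 and Col3a1 stayed at 0, Col7a1 had 12 and Col13a1 had 29. A second RefSeq start of Col9a1 (window chr1:24194953-24195252) had 1 CG and held CCAAT. The median was 11.5 CG over 38 windows of 35 collagen genes, and 7 over all 32851 RefSeq windows. The letters TATAAA, sought on both strands, stood in 5 of the 38 collagen windows, among them those of Col13a1 and Col3a1, and in 13.6% of all windows. The letters CCAAT stood in 13 of 38, among them that of Col7a1, and in 37.4% of all. The windows of Col1a1, Col2a1, Col5a2, Col4a3, Col9a3, Col12a1, Col14a1, Col22a1 and Col26a1 were not analysed here. These letters are a description, and no methylation was measured in these libraries.

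In the whole E8.5 libraries, 35 of the 44 collagens had enough counts to be tested, and 1 of them, Col7a1, was called lower in Tet-TKO (background 2.06% of 21075 genes) and none higher (0.588%). The median log2 fold change of the 35 was 0.22, with 19 positive, beside 0.02 over all genes tested. At an unadjusted p under 0.05, 6 collagens were higher (background 12.2%) and 4 lower (14.5%), and DESeq2 called 2 higher (Col14a1 and Col22a1; background 2.12%) and 2 lower (Col7a1 and Col9a1; 4.74%). At an adjusted p under 0.05 with no minimum fold, 3 were higher (background 3.74%) and 2 lower (6.75%). In a whole library, a different mix of cell types and a different level per cell cannot be told apart. The 9 untested members (Col5a3, Col6a4, Col6a5, Col6a6, Col10a1, Col17a1, Col19a1, Col20a1 and Col28a1) averaged at most 0.0699 CPM in either genotype.

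**Figure D1:**
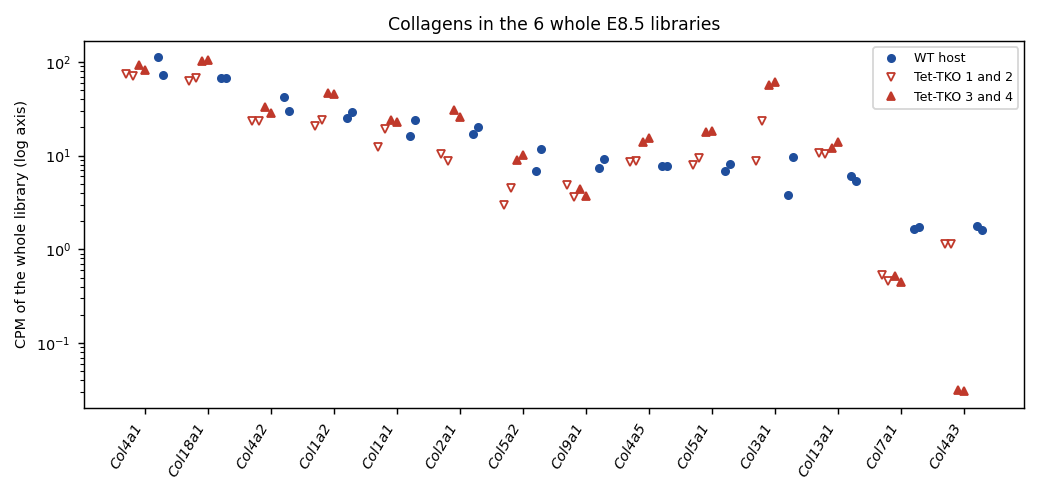
Collagens in the 6 whole E8.5 libraries, in CPM on a log axis. Each point is 1 library: circles are WT host, open triangles Tet-TKO libraries 1 and 2, filled triangles Tet-TKO libraries 3 and 4. Col3a1 ran from 3.84 and 9.75 CPM in the WT host libraries to 57.4 and 60.4 in Tet-TKO libraries 3 and 4.

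The fibrillar collagens split the Tet-TKO libraries rather than the genotypes. Their 11 genes summed to 70.7 and 96.9 CPM in Tet-TKO libraries 1 and 2, to 199.7 and 199 in libraries 3 and 4, and to 83.9 and 112 in the WT host libraries, and none of the 10 tested was called. The genotypes overlapped, and the high values were those of Tet-TKO libraries 3 and 4. Col3a1 (chromosome 1, 45311538 to 45349706), the chain of type III collagen in vessels and soft connective tissue, was at 8.68, 23.4, 57.4 and 60.4 CPM in the Tet-TKO libraries and at 3.84 and 9.75 in the WT host libraries. Its log2 fold change was 2.32 ± 0.81 (SE, n = 4 and 2; edgeR adjusted p = 0.123), and it was 2.93 (adjusted p = 0.00545) from libraries 3 and 4 alone and 1.24 (adjusted p = 0.218) from libraries 1 and 2 alone. Of these 3 fits, only the one without libraries 1 and 2 passed, and its Tet-TKO replicates were the near-identical libraries 3 and 4.

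Type I collagen is the main fibre protein of connective tissue. Its chain Col1a1 was at 12.4, 19.2, 23.8 and 23.1 CPM in Tet-TKO and at 16.4 and 23.9 in WT host (log2 fold change −0.14, edgeR adjusted p = 0.754). Col1a2, its partner chain, was at 20.7, 24.1, 46.2 and 46.0 against 25.2 and 29.3 CPM (0.22, adjusted p = 0.685). The genotypes overlapped in both genes. Col2a1, the chain of type II collagen in cartilage and notochord, was at 10.5, 8.80, 30.6 and 25.9 against 16.8 and 20.1 CPM (−0.09, adjusted p = 0.918). For the type V chains, which start and limit fibril growth, Col5a1 was at 7.86, 9.45, 17.9 and 18.3 against 6.92 and 8.22 CPM (0.70, adjusted p = 0.225). Col5a2 was at 2.98, 4.57, 9.10 and 10.2 against 6.78 and 11.8 CPM (−0.60, adjusted p = 0.437). In Col1a2, Col2a1 and Col5a1, Tet-TKO libraries 3 and 4 lay above the other 4 libraries, and in Col5a2 above libraries 1 and 2. From libraries 3 and 4 alone Col5a1 was called higher (1.07, adjusted p = 0.00259), and from libraries 1 and 2 alone it was not (0.20, adjusted p = 0.355).

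The basement membrane collagens were the largest group by UMIs, and none of the 8 tested was called. They summed to 174, 176, 252 and 241 CPM in Tet-TKO and to 234 and 184 in WT host, with overlapping genotypes and a median log2 fold change of −0.17. Col4a1 and Col4a2 lie head to head on chromosome 8 and encode the chains of the common type IV trimer. Col4a1 was at 74.9, 71.5, 91.9 and 81.5 against 112 and 72.2 CPM (−0.29, edgeR adjusted p = 0.310). Col4a2 was at 23.2, 23.2, 32.8 and 28.8 against 42.8 and 30.3 CPM (−0.53, adjusted p = 0.0836). WT host library 1 held the highest level of both genes. Its 38 Parietal endoderm-like cells had Col4a1 at 6062 and Col4a2 at 2261 CPM, WT host library 2 had 9 such cells and Tet-TKO library 3 had 2. Without the cells of this and the other extraembryonic-like classes, the log2 fold change was 0.08 for Col4a1 (adjusted p = 0.726) and −0.17 for Col4a2 (adjusted p = 0.455). Col18a1, the core protein that releases endostatin, was at 62.9, 68.0, 103 and 106 against 66.7 and 67.2 CPM (0.24, adjusted p = 0.439), and Col4a5 at 8.52, 8.67, 14.0 and 15.4 against 7.68 and 7.81 (0.48, adjusted p = 0.226). In both, Tet-TKO libraries 3 and 4 lay above the rest.

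Col4a3, a type IV chain of kidney and lung basement membranes, was named after its values had been seen. It had 157 and 142 UMIs in Tet-TKO libraries 1 and 2, 3 and 2 UMIs in libraries 3 and 4, and 233 and 202 in the WT host libraries. That is 1.15, 1.15, 0.0314 and 0.0307 CPM against 1.78 and 1.59. Its log2 fold change was −1.47 ± 1.16 over all libraries (SE, n = 4 and 2; edgeR adjusted p = 0.458), −5.88 (adjusted p = 0.00117) from libraries 3 and 4 alone, and −0.53 (adjusted p = 0.0573) from libraries 1 and 2 alone. Among classes, the Forebrain, midbrain and hindbrain-like class had it at 1.77, 2.11, 0 and 0 CPM in Tet-TKO and at 3.96 and 3.34 in WT host.

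Among the fibril-associated collagens, which coat fibrils, 5 of 7 tested had positive fold changes (median 0.72) and none was called. Col22a1, found at tissue junctions such as those of muscle and tendon, was at 1.38, 1.66, 2.74 and 2.92 CPM in Tet-TKO and at 0.587 and 0.584 in WT host (1.78 ± 0.32 SE, edgeR adjusted p = 0.0169). Col14a1, which binds type I fibrils, was at 0.877, 0.927, 1.49 and 1.20 against 0.442 and 0.315 CPM (1.47 ± 0.27, adjusted p = 0.0189). For both, all 4 Tet-TKO libraries lay above both WT host libraries. The same held for Col9a2, Col4a5 and Col23a1, among others. Col9a1 (chromosome 1, 24177610 to 24252684), a type IX chain that decorates type II fibrils, went the other way, at 4.83, 3.65, 4.46 and 3.73 against 7.36 and 9.21 CPM (−1.07 ± 0.19, adjusted p = 0.0166), and all 4 Tet-TKO libraries lay below both WT host libraries. Its partner chains were at 2.15, 1.46, 1.42 and 1.37 against 3.79 and 2.53 CPM for Col9a3 (−1.04, adjusted p = 0.0645) and at 0.863, 0.984, 1.53 and 2.27 against 0.632 and 0.757 for Col9a2 (0.90, adjusted p = 0.183). With each Tet-TKO pair summed, none of these adjusted p was under 0.05 for Col9a1 (0.0793), Col14a1 (0.0941) or Col22a1 (0.0653). From libraries 3 and 4 alone all 3 were called (adjusted p = 0.00480, 0.00588 and 0.00157), and from libraries 1 and 2 alone none was (0.0311, 0.0232 and 0.0119).

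All 3 tested transmembrane collagens had positive fold changes. Their 4 genes summed to 20.7, 21.7, 23.8 and 25.9 CPM in Tet-TKO and to 13.2 and 13.6 in WT host, without overlap. Col13a1 (chromosome 10, 61838236 to 61979108), a surface collagen known from neuromuscular junctions, accounted for much of this: it was at 10.7, 10.3, 11.9 and 14.1 against 6.10 and 5.39 CPM (0.94 ± 0.13 SE, edgeR adjusted p = 0.00823), short of the 2-fold limit. Col23a1 was at 9.56, 11.0, 11.0 and 10.9 against 6.85 and 7.79 CPM (0.45, adjusted p = 0.0684).

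The beaded-filament genes summed to 1.77 to 2.65 CPM in Tet-TKO and to 1.76 and 2.41 in WT host, and none of 3 tested was called (median −0.05). The short-chain network, anchoring and remaining genes summed to 7.96, 8.67, 12.7 and 12.9 CPM against 10.4 and 14.4, with 1 of 4 tested, Col7a1, called. Col7a1 (chromosome 9, 108953586 to 108984875), the chain of the fibrils that anchor basement membrane to the tissue below, was at 0.534, 0.464, 0.524 and 0.446 CPM in Tet-TKO and at 1.66 and 1.75 in WT host. Its log2 fold change was −1.87 ± 0.19 (SE, n = 4 and 2, edgeR adjusted p = 0.00294), and the groups did not overlap. Either pair of Tet-TKO libraries alone gave a call (−1.76 and −1.98). Both of those fits used the same 2 WT host libraries and near-identical Tet-TKO replicates, so they are not independent repeats. The call was lost with the pairs summed (adjusted p = 0.0382) and without Tet-TKO library 2 or 3 or WT host library 1 or 2 (up to 0.0274). Erythroid-like cells made up 11.1% and 20.5% of the cells of the WT host libraries and 0.128% to 0.694% of those of the Tet-TKO libraries, and held Col7a1 at 5.01 and 3.74 CPM in WT host. Without those cells, the log2 fold change was −1.19 (adjusted p = 0.0159) and the call was lost. That fit still held cluster 7 (Hbb-bh0, Gata1), which made up 5.52% and 4.86% of WT host cells and 0.494% to 1.31% of Tet-TKO cells. Col7a1 was there at 5.59 and 4.29 CPM in WT host and at 2.58, 2.29 and 3.79 in Tet-TKO libraries 1 to 3, and the part of these cells was not tested.

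Collagen levels spanned a wide range between cell classes. Among WT host cells, Col4a1 was at 300.0 and 245 CPM in the Gut endoderm-like class and at 259 and 246 in the Endothelium-like class. Col18a1 was highest among named classes in the Endothelium-like class, at 212 and 240 CPM. Both are components of the sheets that line epithelia and vessels. The fibrillar chains had other places. Col1a1 was at 169 and 380 CPM and Col1a2 at 198 and 324 CPM in the Mesenchyme-like class, and at 100.3 and 139 and at 108 and 128 in the Allantois-like class. Col2a1 was at 167 and 187 CPM in the Notochord-like class and at 151 and 144 in the Cardiomyocytes-like class. Among named classes, Col13a1 was highest in the Pharyngeal mesoderm-like class (39.2 and 29.6 CPM), as were Col23a1 (82.7 and 67.3) and Col26a1 (85.1 and 135). The unnamed clusters held higher levels of Col18a1 in cluster 52 (235 and 358 CPM) and of Col13a1 in cluster 49 (51.2 and 45.7). Cluster 52 had only 11 and 18 WT host cells, with means of 2325 and 2172 UMIs per cell. Its levels rest on few counts and are not read as above those of the Endothelium-like class.

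Over 21 named WT host classes, the ranks of Col4a1 and Col4a2 ran together (Spearman correlation 0.98), as did those of Col4a5 and Col4a6 (0.93), neighbours on the X chromosome. The correlation was 0.85 for Col1a2 with Col5a2, 0.84 for Col1a2 with Col3a1 and 0.76 for Col1a1 with Col1a2. The type IX chains, whose protein contains all 3, were less alike, with 0.45 for Col9a1 with Col9a2, 0.36 for Col9a1 with Col9a3 and 0.51 for Col9a2 with Col9a3. These values describe classes that share 2 libraries and carry no test.

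**Figure D2:**
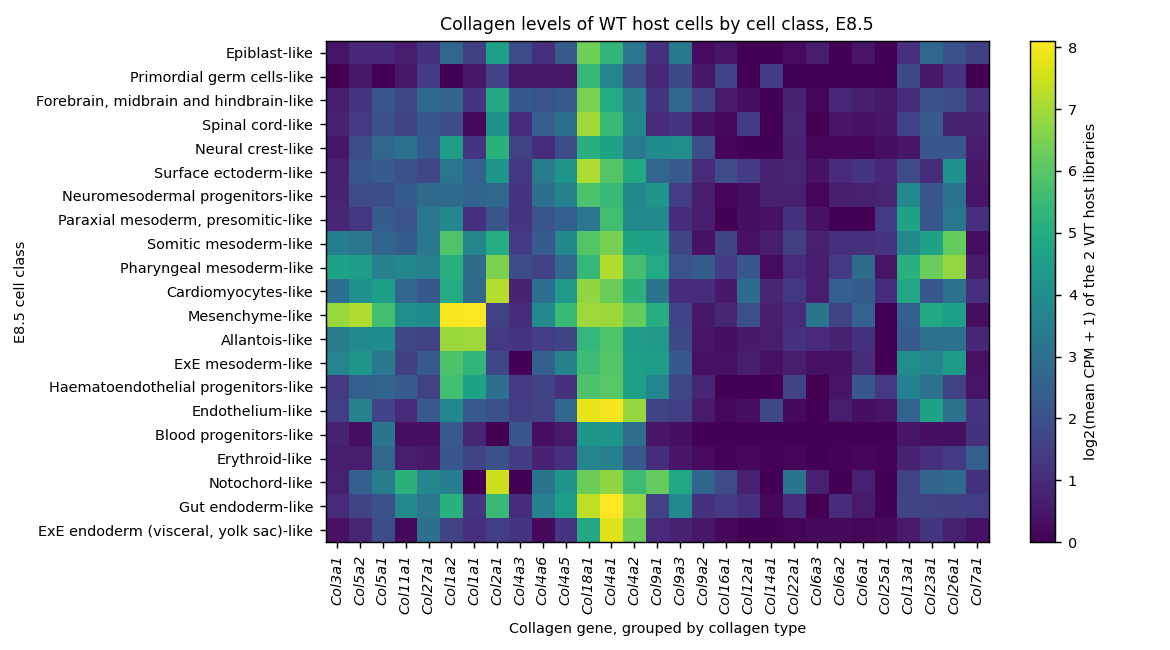
Collagen levels by WT host cell class at E8.5, with cell classes as rows, collagen genes as columns and colour for the level. Col4a1 and Col18a1 were high in the Endothelium-like class (259 and 246 CPM, and 212 and 240), and Col1a1 and Col1a2 in the Mesenchyme-like class.

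Within the named classes, 5 of 291 gene-class tests called a collagen lower in Tet-TKO (background 0.348%) and none higher (0.213%), over 29 collagens and 20 classes. Of the 291, 140 fold changes were negative. At an unadjusted p under 0.05, 34 were higher (5.93%) and 52 lower (6.26%), and DESeq2 called 5 higher (0.59%) and 7 lower (0.657%). The 5 were Col22a1 (Allantois-like), Col13a1 (Mesenchyme-like), Col4a1 (Haematoendothelial progenitors-like), and Col1a1 and Col1a2 (both Erythroid-like). The 7 were the 5 edgeR calls, with Col9a1 in the Neuromesodermal progenitors-like class and Col1a2 in the Pharyngeal mesoderm-like class. At an adjusted p under 0.05 with no minimum fold, 4 were higher (0.691%) and 8 lower (0.957%). With the unnamed clusters added, to 36 classes or clusters, 8 of 421 tests were called lower (0.349%) and none higher (0.233%), and at an adjusted p under 0.05 with no minimum fold 17 were lower (0.905%) and 7 higher (0.697%). Summing the Tet-TKO pairs left 2 of the 5 calls in named classes. From libraries 1 and 2 alone, 25 tests were lower and 1 higher, and from libraries 3 and 4 alone 18 lower and 13 higher. Of these, 9 lower calls and no higher call were shared between the pairs. The replicates that remain in each such fit were the 2 that differed least. Both fits used the same 2 WT host libraries, so a shared call is not an independent repeat. The share of all gene-class tests called in the summed and pair fits is not given, so their counts are not a result about collagens.

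**Figure D3:**
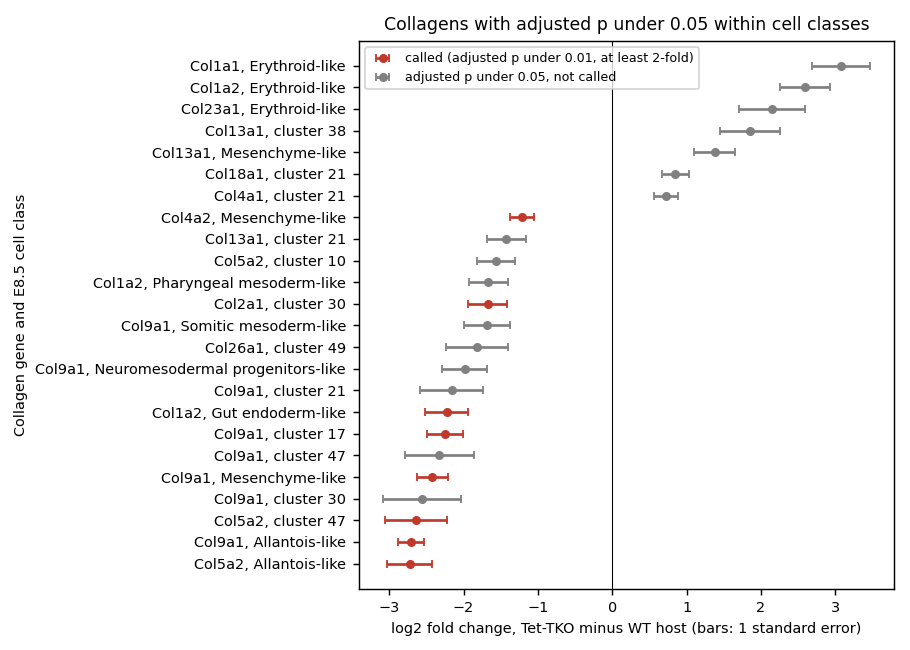
Log2 fold changes of the collagens at an adjusted p under 0.05 in E8.5 cell classes, Tet-TKO minus WT host, with bars of 1 standard error. Red points were called and grey points were not. Each called point lies below 0, from −1.21 for Col4a2 in the Mesenchyme-like class to −2.73 for Col5a2 in the Allantois-like class.

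Col9a1 had more of the class calls than any other collagen, 3 of 8. It was called lower in 2 named classes and in cluster 17, had an adjusted p under 0.05 in 8 classes or clusters, and had a negative fold change in 20 of the 21 in which it was tested. A class could enter through high WT host counts alone, which favours negative signs. Of genes tested in 10 or more classes, 3.22% were lower in all or all but 1, and the classes share their 6 libraries. In the Allantois-like class (the allantois is the bud of the umbilical vessels), Col9a1 was at 2.98, 2.98, 2.79 and 3.13 CPM in Tet-TKO and at 18.2 and 21.2 in WT host (−2.71 ± 0.17 SE, edgeR adjusted p = 0.000325; class background 0.446% lower). In the Mesenchyme-like class it was at 4.79, 5.65, 7.15 and 7.63 against 25.7 and 38.2 CPM (−2.42 ± 0.21, adjusted p = 0.00122; class background 0.79% lower). In both classes the 4 Tet-TKO libraries lay close together, far below both WT host libraries. The calls held with the Tet-TKO pairs summed (adjusted p = 0.00226 and 0.00174), and were lost without WT host library 2 (0.0101 and 0.0406).

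Cluster 17, led by Lhx1, Osr1 and Prrx1, genes of intermediate and lateral mesoderm, had Col9a1 at 9.55, 8.33, 7.26 and 9.79 against 50.8 and 33.3 CPM (−2.25, edgeR adjusted p = 0.00167; background 0.202% lower). The call was lost without WT host library 1 (0.0635). In the Neuromesodermal progenitors-like class, Col9a1 was at 5.39, 5.75, 3.32 and 2.82 against 16.3 and 19.4 CPM (−1.98, adjusted p = 0.0180), and its fold change was 0.65 (adjusted p = 0.792) when clusters were made without correction between libraries. In the Somitic mesoderm-like class it was at 5.75, 6.20, 9.57 and 6.91 against 17.8 and 29.7 CPM (−1.68, adjusted p = 0.0274). Neither class passed the call limit in edgeR, though the genotypes did not overlap in either. The Forebrain, midbrain and hindbrain-like class was the exception in direction, at 1.77, 2.11, 2.14 and 1.63 against 1.08 and 1.62 CPM (0.47, adjusted p = 0.624).

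The lower Col9a1 was also seen inside the main clusters of the Allantois-like and Mesenchyme-like classes. The Allantois-like class was mostly cluster 0 (Tbx4, Hoxa10) and cluster 1 (Vcam1, Twist2). Col9a1 was at 2.49 to 3.66 CPM in Tet-TKO against 22.9 and 25.5 in WT host in the former and at 1.02 to 4.66 against 9.33 and 16.2 in the latter. The Mesenchyme-like class was mostly cluster 4 (Lum, Postn) in Tet-TKO, with 63.8% to 80.9% of its cells, and mostly cluster 14 (Tagln, Ccn4) in WT host, with 71.9% and 71.2%. Col9a1 was at 3.31 to 8.18 against 11.1 and 42.4 CPM in cluster 4 and at 5.77 to 11.4 against 31.9 and 36.6 in cluster 14. In the Neuromesodermal progenitors-like class the gene was found mostly in cluster 8 (Cdx4, Hoxb9), at 6.98 to 13.4 against 46.1 and 44.6 CPM. The genotypes did not overlap in any of these 5 clusters. They overlapped in the other 3 clusters of the Neuromesodermal progenitors-like class, at 0 to 1.37 against 0 to 2.76 CPM in clusters 3 and 35 and at 0 and 15.8 against 14.5 and 22.0 in cluster 43.

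**Figure D4:**
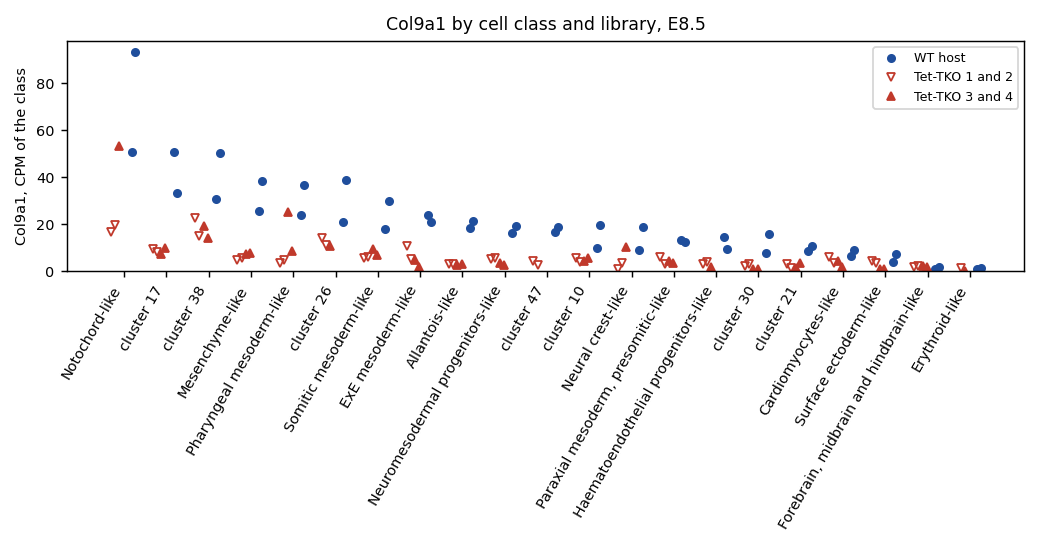
Col9a1 by E8.5 cell class, in CPM of the class. Each point is 1 library, with circles for WT host, open triangles for Tet-TKO libraries 1 and 2 and filled triangles for libraries 3 and 4. In the Allantois-like class the Tet-TKO points lie at 2.79 to 3.13 and the WT host points at 18.2 and 21.2.

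Col5a2, the second chain of type V collagen, was called lower in the Allantois-like class, at 1.42, 1.73, 2.92 and 2.35 CPM in Tet-TKO against 9.60 and 17.0 in WT host (−2.73 ± 0.31 SE, edgeR adjusted p = 0.00334; 0.0104 with the pairs summed). All 4 Tet-TKO libraries lay below both WT host libraries in cluster 0 (0.853 to 2.22 against 3.25 and 7.96) and in cluster 1 (2.46 to 4.37 against 22.7 and 29.1). The call was lost without either WT host library (adjusted p up to 0.0545). In cluster 47, led by Pitx1 and Tbx4, Tet-TKO libraries 1 and 2 had 4.18 and 3.45 CPM against 20.3 and 31.0 (−2.64, adjusted p = 0.00224; background 0.306% lower), and the call was lost with DESeq2 (0.0210). It rests on the near-identical libraries 1 and 2, the only Tet-TKO libraries in that fit. Over all 14 classes or clusters tested, Col5a2 had a negative fold change in 13. Here too a class could enter through high WT host counts alone, which favours negative signs. Of genes tested in 10 or more classes, 3.22% were lower in all or all but 1, and the classes share their 6 libraries. The fold change of Col5a1, the partner of Col5a2, was positive in 21 of 26, with no call and no all-gene share for that count.

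Col1a2 was called lower in the Gut endoderm-like class, at 9.03, 7.93, 3.34 and 8.75 CPM in Tet-TKO and at 34.4 and 36.7 in WT host (−2.23 ± 0.29 SE, edgeR adjusted p = 0.00434; class background 0.535% lower). The Tet-TKO libraries lay well below both WT host libraries. The level was highest in cluster 34 (Spink1, Hhex), in which Col1a2 was at 37.2 and 28.8 CPM in Tet-TKO libraries 1 and 2 and at 112 and 125 in WT host. Tet-TKO libraries 3 and 4 had 3 and 2 cells there. This cluster made up 23.0% and 20.3% of the class in WT host and 16.2%, 12.5%, 3.16% and 7.41% in Tet-TKO. In cluster 18 of the class, Col1a2 was at 1.25 to 4.21 CPM in the 4 Tet-TKO libraries and at 10.3 and 14.8 in WT host, without overlap. In clusters 31 and 42 the genotypes overlapped. Markers of visceral and yolk sac endoderm were also lower in this class, with 3 of 12 called (Afp, Trf and Rbp4) and sums of 91.8 to 557 CPM against 2838 and 1445, while none of the 12 gut markers was called. The part of these cells and of the cluster shares in the Col1a2 result was not tested. With the Tet-TKO pairs summed the adjusted p was 0.0186, and without either WT host library or Tet-TKO library 4 the call was lost (up to 0.0650). In the Pharyngeal mesoderm-like class, Col1a2 was at 11.9, 6.84, 14.0 and 8.53 against 32.4 and 36.0 CPM (−1.67, adjusted p = 0.0101), just outside the limit.

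In the Mesenchyme-like class, Col4a2 was called lower, at 30.7, 26.6, 37.8 and 34.4 CPM against 60.1 and 83.9 (−1.21 ± 0.16 SE, edgeR adjusted p = 0.00654; 0.0136 with the pairs summed, and up to 0.162 with 1 library left out). The genotypes did not overlap in cluster 4 (29.6 to 42.3 against 57.3 and 83.2) or in cluster 14 (7.69 to 26.5 against 61.2 and 84.2). Col4a1, the other chain of the trimer, was at 82.8, 74.8, 94.6 and 86.5 against 107 and 129 CPM (−0.54, adjusted p = 0.0625). Col1a1 in this class was at 24.4, 43.5, 123 and 113 against 169 and 380 CPM (−1.95 ± 0.54, adjusted p = 0.107), and Col3a1 at 65.9, 213, 509 and 561 against 63.1 and 165 (1.47 ± 0.73, adjusted p = 0.382). Tet-TKO libraries 3 and 4 were above libraries 1 and 2 in both genes, and neither difference passed. From either pair alone, Col1a1 was called lower (−2.99 and −1.34, adjusted p = 0.000253 and 0.000136). Col3a1 was called higher from libraries 3 and 4 alone (2.10, edgeR adjusted p = 2.91e-06) and not from libraries 1 and 2 alone (0.31, adjusted p = 0.751). The Tet-TKO replicates in each of these fits were 1 near-identical pair, so the p-values measure the spread within it. Of the 12 markers of the class, 3 were called lower in Tet-TKO (Tagln, Anxa2 and Acta2), with sums of 3501 to 3959 CPM against 6466 and 7678, and their part in these results was not tested.

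Cluster 30, led by Tbx1, Foxc2 and Tcf15, had Col2a1 at 17.7, 11.7, 27.1 and 20.05 CPM against 46.9 and 70.7 (−1.67, edgeR adjusted p = 0.00679; background 0.329% lower; 0.0320 with the pairs summed). The call was also lost without Tet-TKO library 1 or 2 or either WT host library (up to 0.219), and with cells matched on tdTomato (0.0118). In the Notochord-like class, the textbook site of Col2a1, the gene was at 161, 71.5 and 262 CPM in the first 3 Tet-TKO libraries and at 167 and 187 in WT host, and its fold change was 0.0018 (adjusted p = 0.999).

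No collagen was called higher in a class by edgeR, but some were higher at an adjusted p under 0.05. In the Mesenchyme-like class Col13a1 was at 10.0, 11.2, 13.6 and 14.2 CPM against 3.06 and 5.86 (1.38 ± 0.28 SE, edgeR adjusted p = 0.0346), with no overlap in cluster 4 or cluster 14. In cluster 38, led by Mab21l2, Wnt2 and Gata6, it was at 34.7, 36.8, 37.2 and 68.5 against 16.0 and 7.19 CPM (1.85, adjusted p = 0.0387). In cluster 21, led by the vascular genes Gja4, Etv2, Sox18 and Kdr, it was lower, at 8.68, 5.78, 10.6 and 6.58 against 19.8 and 22.5 CPM (−1.42, adjusted p = 0.0179). The effect in the Mesenchyme-like class differed from that in cluster 21 by 2.80 ± 0.35 (edgeR, class by genotype term, adjusted p = 0.000127). That test was chosen after the opposite directions had been seen in the same counts, which favours a low p. Col18a1 and Col4a1 were higher in cluster 21, at 124, 131, 165 and 196 against 77.5 and 90.6 CPM (0.85, adjusted p = 0.0382) and at 186, 194, 281 and 246 against 133 and 138 (0.72, adjusted p = 0.0469). None of these 5 results kept an adjusted p under 0.05 with each library left out in turn: the highest were 0.250 for Col13a1 in the Mesenchyme-like class, 0.578 in cluster 38, where the fold change ran from 1.38 to 2.60, and 0.274 in cluster 21, 0.493 for Col18a1 and 0.492 for Col4a1.

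Col3a1 had a positive fold change in all 15 classes or clusters in which it was tested, from 0.05 to 6.32, with no call. Of genes tested in 10 or more classes, 4.38% were higher in all or all but 1, and the classes share their 6 libraries. A class could enter through high Tet-TKO counts alone, which favours positive signs. All Tet-TKO libraries lay above both WT host libraries in 1 of the 15. The lowest edgeR adjusted p was 0.0603, in the Endothelium-like class. Col3a1 was there at 8.64, 14.1, 43.3 and 1.96 CPM against 0.712 and 2.96. Tet-TKO library 4, with 15 cells, lay between the WT host libraries there, and the other Tet-TKO libraries above both. The lowest of these values rest on few UMIs. From libraries 1 and 2 alone Col3a1 was called higher in this class (2.72, edgeR adjusted p = 0.00177), and from libraries 3 and 4 alone it was not tested there. In the Erythroid-like class, Col1a1 was at 15.5 and 30.9 CPM in Tet-TKO libraries 2 and 3 (56 and 16 cells) and at 2.39 and 1.97 in WT host (918 and 1855 cells; 3.08, edgeR adjusted p = 0.0163). In the whole of these libraries Col1a2 was at 24.1 and 46.2 against 25.2 and 29.3 CPM. In the Erythroid-like cells it was at 28.6 and 25.2 against 4.38 and 2.79 (2.59, edgeR adjusted p = 0.0173). The 11 erythroid markers summed to 36519 and 64867 CPM in these Tet-TKO cells against 109153 and 170135 in WT host, with none called, and their part in this result was not tested. Outside the Erythroid-like class the same markers also differed, in all 13 other classes or clusters with a collagen result: their sums were 3.34 to 78.1 CPM in Tet-TKO and 452 to 7194 in WT host, with 4 to 6 markers called lower in each.

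The lists of enzymes and partners that make, fold, crosslink and bind collagen held a single call in named classes. In the whole libraries none was called of 15 genes of collagen hydroxylation and glycosylation (median log2 fold change 0.10), 10 of folding and secretion (0.24), 13 of processing and crosslinking (0.25), 14 of receptors and breakdown (0.42) and 17 basement membrane partners (0.27). At an unadjusted p under 0.05, 18 of these 69 were higher and 3 lower (backgrounds of 12.2% and 14.5%), and DESeq2 called 0 (2.12% and 4.74%). Serpinh1, the collagen chaperone HSP47, was at 418 to 443 CPM in Tet-TKO and at 424 and 389 in WT host (log2 fold change −0.0042). The fold changes of P4ha1 (0.25), Plod2 (0.16), Lox (0.13), Sparc (−0.24) and Lamb1 (0.34) did not pass either. Within named classes, 1 of 911 tests was called (background 0.348% lower and 0.213% higher). DESeq2 called 11 higher (0.59%) and 3 lower (0.657%). The gene called by edgeR was Plod2, a lysyl hydroxylase whose product forms stable crosslinks. It was lower in the Gut endoderm-like class, at 51.6, 46.4, 50.6 and 47.1 against 124 and 103 CPM (−1.15 ± 0.13 SE, edgeR adjusted p = 0.00199). The Tet-TKO libraries were tightly grouped below both WT host libraries, in the class in which Col1a2, Afp, Trf and Rbp4 were also lower and cluster 34 was a smaller share, and the part of these in the Plod2 result was not tested. Of the unnamed clusters, cluster 49 (Emcn, Etv2) had Nid2, a linker of laminin and type IV collagen, at 63.1 and 37.3 CPM in Tet-TKO libraries 1 and 2 against 15.7 and 14.5 in WT host (1.70, adjusted p = 0.00789), and Serpinh1 was called higher in cluster 45, at 282 and 218 against 156 and 94.2 CPM (1.07, adjusted p = 0.00731). Both calls rest on the near-identical Tet-TKO libraries 1 and 2. Libraries 3 and 4 had too few cells to be in the fit, with 9 and 3 cells and Nid2 at 22.8 and 29.4 CPM in cluster 49, and 9 and 5 cells and Serpinh1 at 93.2 and 38.5 CPM in cluster 45.

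At E7.5 there was 1 library per genotype, so no difference has a replicate check and the intervals (95%, exact Poisson) cover counting error only. Of 29 collagens with at least 20 UMIs in a library, 2 were higher by 2-fold in Tet-TKO (background 4.98% of 17862 genes) and 1 lower (12.1%). Col9a2 was at 1.97 CPM in Tet-TKO and 0.570 in WT host (log2 ratio 1.79, interval 1.36 to 2.23) and Col25a1 at 0.446 and 0.222 (1.01, 0.26 to 1.79). Col5a2 was at 0.636 and 1.83 CPM (−1.52, −1.94 to −1.11). For Col5a2 this is the direction found in the E8.5 classes.

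The most abundant collagens at this stage were those of basement membranes. Col4a1 was at 48.0 CPM in Tet-TKO and 59.99 in WT host, Col18a1 at 34.2 and 43.4, and Col4a2 at 13.2 and 20.5. Col13a1 was at 9.07 and 6.02 CPM (log2 ratio 0.59, 0.45 to 0.74), on the side of its E8.5 whole-library difference. Col9a1 was on the other side, at 4.39 in Tet-TKO and 2.75 CPM in WT host (0.67, 0.46 to 0.89). In the Allantois-like cells of E7.5 (147 and 122 cells), however, Col9a1 was at 10.0 CPM (7.07 to 13.8) in Tet-TKO and 33.8 (25.9 to 43.4) in WT host, lower in Tet-TKO as at E8.5. In the Epiblast-like cells (760 and 250), Col9a2 was at 4.45 CPM (3.54 to 5.51) against 1.12 (0.306 to 2.87). The WT host library had 1873 ExE ectoderm-like cells and the Tet-TKO library 14. The paper found no injected cells in the ExE ectoderm, whether WT control or Tet-TKO. It had expected this of embryonic stem cells injected into blastocysts. Without cells of the extraembryonic-like classes, Col9a2 was the only collagen higher by 2-fold (1.74), and Col5a2 (−2.09), Col6a1 (−1.16) and Col23a1 (−1.44) were lower. The differences of Col13a1 and Col9a1 were then near 0, with log2 ratios of 0.01 (−0.14 to 0.16) and 0.08 (−0.14 to 0.30).

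**Figure D5:**
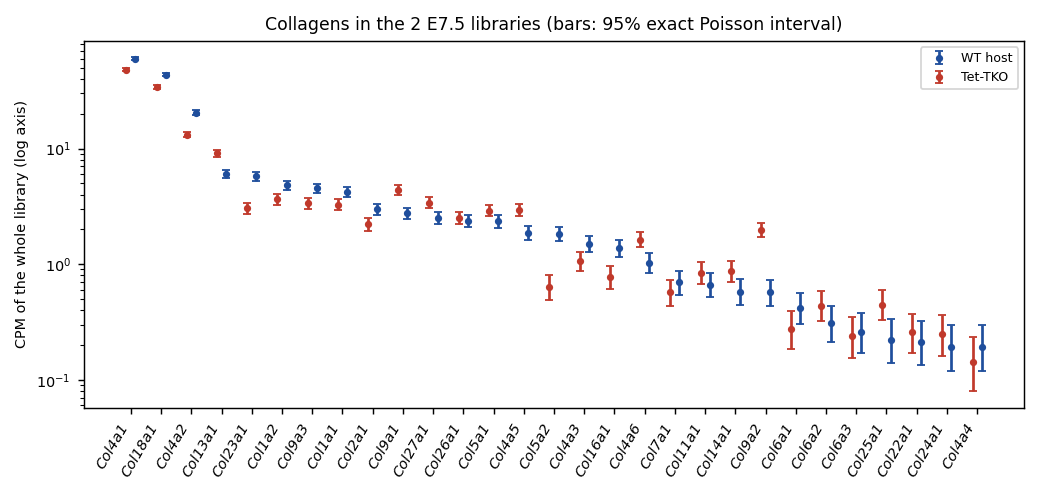
Collagens in the 2 E7.5 libraries, in CPM of the whole library on a log axis, with bars for the 95% exact Poisson intervals. Col9a2 lies higher in Tet-TKO (1.97 against 0.570 CPM) and Col5a2 lower (0.636 against 1.83).

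Collagen transcripts were more abundant at E8.5 than at E7.5 in both genotypes. All 44 genes summed to 147 CPM in the E7.5 Tet-TKO library and 175 in the WT host library, against 287, 316, 506 and 495 and against 358 and 341 at E8.5. Of 33 collagens with at least 20 UMIs in a library, 29 were above E7.5 in both E8.5 WT host libraries (background 40.8% of 19913 genes), 25 were above it in all 4 Tet-TKO libraries (42%), and 23 in both. With 1 library per genotype at E7.5, no test was made. Several fibrillar genes had high ratios of E8.5 to E7.5. Col3a1 had 10 UMIs in the E7.5 WT host library and 8 in the Tet-TKO library, or 0.0966 and 0.0760 CPM, beside 3.84 and 9.75 CPM and 8.68 to 60.4 CPM at E8.5. The ratio of the E8.5 mean to E7.5 was 6.21-fold in WT host and 8.60-fold in Tet-TKO for Col2a1, with Col1a2 at 5.65-fold and 9.44-fold, and Col1a1 at 4.79-fold and 6.01-fold. Without extraembryonic-like cells the E7.5 WT host level was higher, at 7.23 CPM for Col1a2 and 6.43 for Col1a1, which lowers their WT host ratios. In the same all-cell ratios, Col27a1 was at 1.70-fold and 1.36-fold and Col24a1 at 1.47-fold and 1.19-fold. The fibril-associated Col12a1 was at 6.37-fold and 7.49-fold. Of the basement membrane genes, the ratios were 1.53-fold and 1.66-fold for Col4a1, 1.78-fold and 2.05-fold for Col4a2, and 1.54-fold and 2.49-fold for Col18a1, beside 3.60-fold and 3.87-fold for Col4a6 and 4.14-fold and 3.95-fold for Col4a5.

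Of the 33 collagens, Col9a1, Col7a1, Col4a3 and Col9a2 were above their E7.5 level in both E8.5 WT host libraries and not in the Tet-TKO mean. WT host is judged here by each library and Tet-TKO by the mean. Of these genes, only Col7a1 was below E7.5 in all 4 Tet-TKO libraries. Col9a1 (4.39 CPM at E7.5) was above it in Tet-TKO libraries 1 and 3 (4.83 and 4.46). Col4a3 (1.06) was above it in libraries 1 and 2 (1.15 and 1.15), and Col9a2 (1.97) in library 4 (2.27). The ratio for Col9a1 was 3.01 in WT host and 0.95 in Tet-TKO, for Col7a1 2.45 and 0.863, for Col4a3 1.12 and 0.556, and for Col9a2 1.22 and 0.718. Without extraembryonic-like cells, Col9a1 was at 4.15 CPM in the E7.5 WT host library and at 2.75 with all cells. The difference between these ratios was not tested. Col9a3 was below E7.5 in every E8.5 library of both genotypes, with ratios of 0.695 and 0.476.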

How the data were processed

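Count matrices of 8 libraries were used as deposited: raw UMI counts of each gene in each cell, made by the authors with Cell Ranger (5.0.0 in the methods, 3.1.0 in the matrix headers) against mm10, with no normalization. Cells were dropped that had fewer than 1500 UMIs, or over 30% of them mitochondrial, or over 35% ribosomal. No doublets were removed in the chosen fit. Cells were clustered within each stage (2500 variable genes without collagen or matrix-list genes, 50 principal components, mutual nearest neighbour correction between libraries, Leiden resolution 2). Clusters were named "-like" from fixed markers, since no annotation of cells was used here, and shares may differ from the study's classes for that reason.

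Counts were summed per library and class, with at least 10 cells per sum, and Tet-TKO was tested against WT host with edgeR 4.0.16 (TMM, filterByExpr, quasi-likelihood F-test, Benjamini-Hochberg adjustment over all genes tested) in R 4.3.3. The alternatives were DESeq2 1.42.0, its size factors, no filter on low counts, left-out libraries, summed Tet-TKO pairs, a replicate block, at least 30 cells per sum, another resolution, no correction, doublets removed, and cells matched on tdTomato. In data simulated from the whole libraries with 200 changed genes, 83% of log2 changes of 1.5 and 91.5% of those of 2 were recovered. The simulated libraries were independent and had the same spread for every gene, unlike the paired Tet-TKO libraries. These rates therefore do not give the power in the real data.

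The members, gene lists and markers were chosen with earlier results of these data known. Collagens were named where they were called in whole libraries or in a class, or averaged at least 10 CPM in the libraries of a stage, and Serpinh1, P4ha1, Plod2, Lox, Sparc and Lamb1 were named whatever they showed. Other members (Col13a1, Col14a1, Col22a1, Col23a1, Col26a1, Col4a3, Col9a3 and Col6a1 among them) were named after their values had been seen. At E7.5 no test was possible with 1 library per genotype. Collagens were named there by a 2-fold ratio with at least 20 UMIs in a library. Reads of overlapping genes are uncertain where they meet. Among others, Col1a2 overlaps Gm43921, Col3a1 Gm47302 and Col5a2 Gm38211 on the same strand. Col4a1 with Col4a2, Col9a3 with Tcfl5 and Col18a1 with Slc19a1 overlap on opposite strands. Promoter sequences and motif counts came from RefSeq (GRCm38.p6), and gene positions from GENCODE M21. Intervals at E7.5 cover counting error only, since 1 library has no replicate.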

Additional observations from a re-analysis of the deposited data

Results flagged for a closer look

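In cluster 38, led by Mab21l2, Wnt2 and Gata6, Tet-TKO library 4 stood apart for Col13a1, at 68.5 CPM against 34.7 to 37.2 in the other 3 Tet-TKO libraries. The gap to its nearest neighbour was 0.925 of the whole range of the 4 libraries, above the critical value of Dixon's test for 4 samples. This was the only such library among 28 groups of 4 that were looked at, and chance sets apart about 1 group in 20.

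The Col13a1 effect had opposite directions in different classes. It was larger in the Mesenchyme-like class than in cluster 21 by 2.80 ± 0.35 on the log2 scale (SE, 6 libraries; edgeR adjusted p = 0.000127) and larger in cluster 38 than in cluster 21 by 3.15 ± 0.41 (5.28e-05). The Col1a2 effect was larger in the Erythroid-like class than in the Gut endoderm-like class by 5.27 ± 0.46 (4 libraries; 1.46e-05) and than in the Pharyngeal mesoderm-like class by 4.38 ± 0.45 (1.07e-07). These 4 differences were tested because opposite directions had been seen, and the Erythroid-like values rest on 56 and 16 Tet-TKO cells. Both classes of each comparison already had an adjusted p under 0.05 in the same counts, which favours a low p. The p-values therefore add no separate support. The Col13a1 fits also counted the paired Tet-TKO libraries as 4 replicates, and no fit with summed pairs is given.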

How the results depend on the processing

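Each count of calls is given here beside that of the chosen fit. In the whole E8.5 libraries (0 collagens higher, 1 lower), DESeq2 called 2 higher and 2 lower, no filter on low counts gave 1 and 2, an adjusted p under 0.05 with no minimum fold 3 and 2, the Tet-TKO libraries summed in pairs 0 lower, the sums without Erythroid-like cells 0 lower, Tet-TKO libraries 1 and 2 left out together 6 higher and 4 lower, and leaving out 1 library 0 to 1 lower and 0 higher. Within named classes (0 higher, 5 lower), DESeq2 gave 5 higher and 7 lower, no filter 11 and 22, and the wider threshold 4 and 8. Summed pairs gave 2 lower. The fit without Tet-TKO libraries 1 and 2 gave 13 and 18, and that without libraries 3 and 4 gave 1 and 25. Leaving out 1 library also changed the counts, with the fewest calls without WT host library 2. At E7.5 (2 higher, 1 lower), leaving out extraembryonic-like cells gave 1 higher and 3 lower. The fits with either Tet-TKO pair left out were chosen after the data had been seen. The share of all genes called is given only for the chosen fit, the wider threshold and DESeq2. The other counts have no background and are not a result about collagens.

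The replicate block pairs libraries 1 and 2 of each genotype by number and drops Tet-TKO libraries 3 and 4. It gave 3 higher and 2 lower in whole libraries and 3 higher and 42 lower in classes. The share of all genes called in this fit is not given, so these counts are not a result about collagens. The paper compared the cell type proportions of each Tet-TKO sample with those of its matching WT host. The labels do not say which libraries match or that a number marks a shared pool. The deviations of the same-numbered libraries correlated at 0.38 (number 1) and −0.10 (number 2). With only 2 WT host libraries, the correlation with 1 is always the reverse of that with the other. Tet-TKO library 4, which has no same-numbered WT host library, reached 0.29 with WT host library 2. These values therefore cannot tell a matching library from another. Only 2 numbers are shared, and the pairing was not used.

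The 29 single gene results with an edgeR adjusted p under 0.05 in the chosen fit were refitted from largely the same counts, which favours a kept direction. Of 442 alternative values in which the gene was tested, 441 kept their direction. The exception was Col9a1 in the Neuromesodermal progenitors-like class, at 0.65 (adjusted p = 0.792) without correction between libraries. In whole libraries without extraembryonic-like cells, Col4a1 also turned, from −0.29 to 0.08. The cause of these changes was not tested.

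With 2 WT host libraries, 7 of the 8 class calls were lost without 1 or the other of them. In simulated data, 77.5% of 1.5 and 94% of 2 log2 changes were recovered in the Allantois-like class. Those simulated libraries were independent too, so the rates do not describe the paired Tet-TKO libraries.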
